A study of Mus musculus with 4 samples.

Results

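38 genes that mark macrophages or leukocytes in general were followed in the aortas of rosiglitazone-treated and vehicle-treated mice. The list was drawn up with earlier results of these samples known, and its genes were found on the array by gene symbol. Of the 38, 32 had at least 1 probe set (a group of oligonucleotides that together read 1 transcript) naming that gene alone, out of 8251 such genes in all. Cd163, Gpnmb, Alox5ap, Lyn and Plek had no such probe set, and Lyz1 was named only together with Lyz2. RNA was pooled from the aortas of adult male C57BL/6J mice. The rosiglitazone group received 25 mg/kg per day of this PPARγ agonist for 21 days, and the vehicle group received the vehicle over the same 21 days. Each group had 2 Affymetrix arrays, numbered 1 and 2 for rosiglitazone and 3 and 4 for vehicle. Nothing in the labels says how many animals made a pool or whether a group's arrays hold separate pools. The p-values therefore cover only array-to-array spread within a group, which may be technical. The comparison asked which transcripts of these cells differed in the aorta after chronic treatment.

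Macrophages are phagocytes of tissue, and those of the artery wall lie mainly in the adventitia and the fat around it. They depend on the growth factor receptor Csf1r and on the transcription factor PU.1, the product of Spi1, and they take up particles through Fc, complement and scavenger receptors. Fc receptors signal through small adaptors with tyrosine motifs, the particle is then digested in the lysosome, and an NADPH oxidase at the phagosome membrane makes superoxide. Many of the genes followed here are also used by neutrophils, monocytes and lymphocytes, because they serve surface signalling and the actin skeleton of all white blood cells. PPARγ is itself present in macrophages, where its agonists are known to dampen inflammatory genes.

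PU.1 binds purine-rich sites around a GGAA core near the start of many myeloid genes. RefSeq start sites (GRCm38.p6) were found for 26 of the 38 genes, and the 250 bases before the first listed start were searched on both strands for GAGGAA and GGGGAA, motifs that cannot overlap each other. At least 1 match occurred in 17 of the 26 windows (65.4%), and in 38.2% of the first listed windows of all 27025 symbols. A match is a match of letters and not a shown binding site. The windows below belong to the 4 genes with the smallest p among the tested genes found in the table, and to Mrc1, which held the most matches. Each is written 5′ to 3′ on the gene's strand, ends at the base before the start, and has the matches in capitals, a match on the opposite strand appearing as TTCCTC or TTCCCC.
Cd53, chr3:106790150-106790399, minus strand: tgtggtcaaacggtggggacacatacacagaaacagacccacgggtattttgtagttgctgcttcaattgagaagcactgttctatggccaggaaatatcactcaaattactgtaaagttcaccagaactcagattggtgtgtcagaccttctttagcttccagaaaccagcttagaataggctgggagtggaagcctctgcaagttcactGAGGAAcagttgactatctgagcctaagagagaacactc
Laptm5, chr4:130913066-130913315, plus strand: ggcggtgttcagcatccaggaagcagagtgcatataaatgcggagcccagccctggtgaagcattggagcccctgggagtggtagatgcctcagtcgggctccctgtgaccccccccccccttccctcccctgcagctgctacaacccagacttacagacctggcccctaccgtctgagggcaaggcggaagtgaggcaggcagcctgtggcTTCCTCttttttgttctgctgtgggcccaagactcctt
Lcp1, chr14:75130873-75131122, plus strand: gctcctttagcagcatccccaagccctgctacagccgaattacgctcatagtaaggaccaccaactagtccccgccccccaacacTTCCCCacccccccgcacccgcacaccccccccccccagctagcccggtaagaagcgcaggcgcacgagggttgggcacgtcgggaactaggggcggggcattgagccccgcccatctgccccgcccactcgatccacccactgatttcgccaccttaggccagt
Cd68, chr11:69666171-69666420, minus strand: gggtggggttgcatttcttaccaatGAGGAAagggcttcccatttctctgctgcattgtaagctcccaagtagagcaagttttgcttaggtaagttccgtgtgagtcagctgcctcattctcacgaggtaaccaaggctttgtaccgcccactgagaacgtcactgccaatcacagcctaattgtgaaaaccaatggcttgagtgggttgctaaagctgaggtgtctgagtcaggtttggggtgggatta
Mrc1, chr2:14229164-14229413, plus strand: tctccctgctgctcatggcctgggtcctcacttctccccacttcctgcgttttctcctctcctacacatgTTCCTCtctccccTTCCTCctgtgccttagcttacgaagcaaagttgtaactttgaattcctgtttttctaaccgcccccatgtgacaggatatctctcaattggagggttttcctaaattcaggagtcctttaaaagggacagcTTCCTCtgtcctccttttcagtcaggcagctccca

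Most of these genes gave less signal in the rosiglitazone aortas than in the vehicle aortas. Over the 32 genes on the array, each taken at its brightest probe set, both rosiglitazone intensities lay below both vehicle intensities for 22 genes, where 21.0% of all 8251 genes did so. They lay above both for 3 genes, Itgam, Csf2rb and Vav1, against 18.0% of all genes. The fold change was below 0 for 27 of the 32, and for 4129 of all 8251. The median log2 fold change was -0.71, beside -0.002 over all genes on the array. In bulk RNA, fewer cells of a type and less RNA per cell cannot be told apart.

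**Figure D1:**
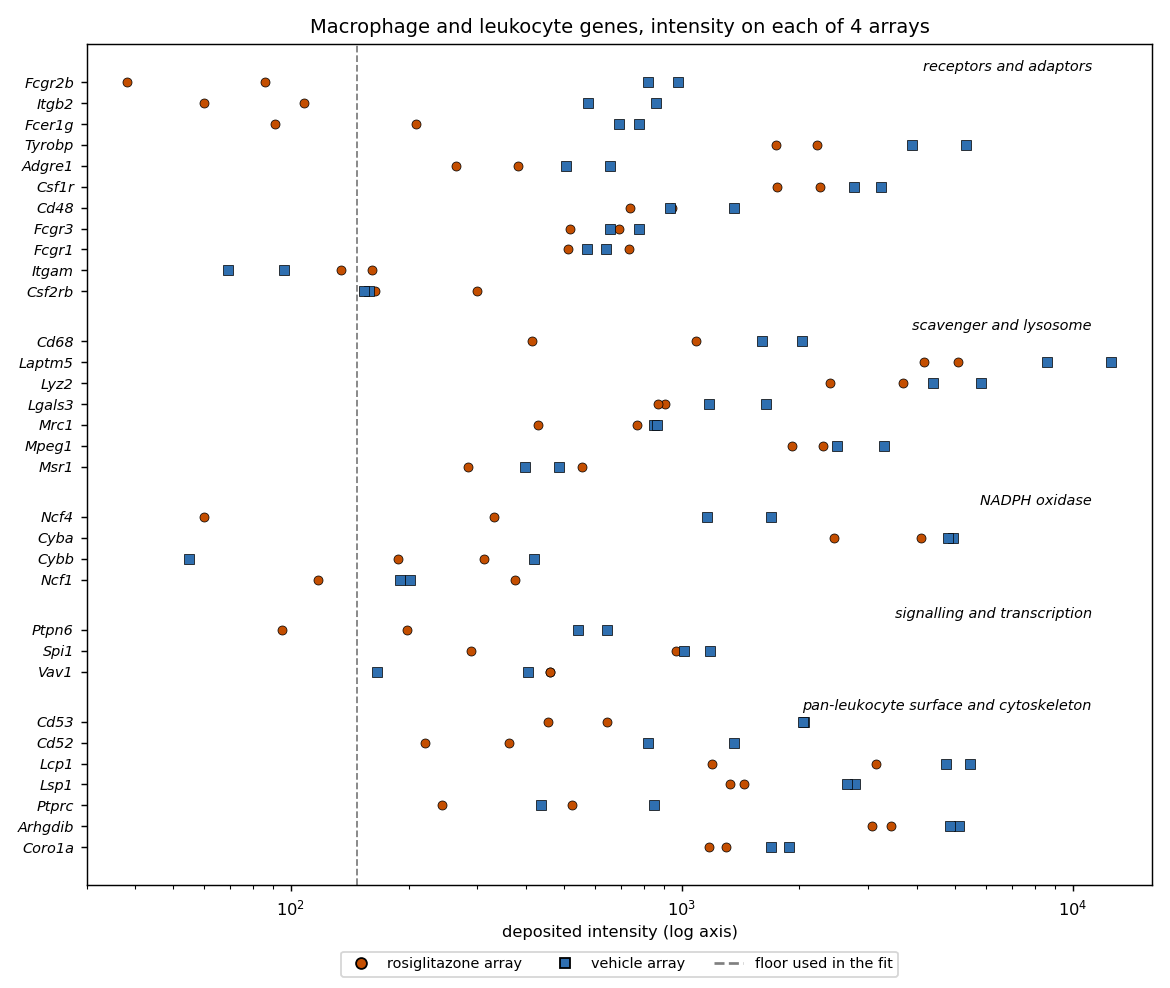
Deposited intensity (log axis) of the brightest probe set of each of the 32 genes, grouped by role, with circles for the 2 rosiglitazone arrays, squares for the 2 vehicle arrays and a dashed line at the floor of 148. For 22 genes both circles lie to the left of both squares, and for Itgam, Csf2rb and Vav1 they lie to the right.

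Fold changes are differences of mean log2 intensity, rosiglitazone minus vehicle, with intensities under 148 raised to that floor. Tests used limma over the 7134 probe sets whose mean reached an intensity of 414, with Benjamini-Hochberg adjustment over all of them. This filter kept 23 of the 32 genes. None (0) of the 23 passed an adjusted p of 0.05 in either direction, while 0.329% of the 5466 genes tested passed as lower and 0.0549% as higher. At an unadjusted p under 0.05 in limma, 10 of the 23 were lower, against 5.93% of all genes tested, and 0 were higher, against 5.03%. 18 of the 23 had no overlap with rosiglitazone lower, against 22.0%, and 0 had none with rosiglitazone higher, against 19.1%. The fold change was below 0 for 22 of the 23, against 51.8%. Adgre1, Cd52, Msr1, Ncf4 and Ptprc reached the filter through the vehicle arrays alone, so a lower value with rosiglitazone was built into their selection. In the 18 genes that reached it in both groups, 17 fold changes were below 0, 15 genes did not overlap and 8 had an unadjusted p under 0.05 in limma. The shares over all genes that reached the filter in both groups were not computed, so these counts have no matching background. With no filter, 12 of the 32 genes were lower at an unadjusted p under 0.05 in limma, against 5.65% of 8251, and 0 genes of the whole array passed the adjustment.

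**Figure D2:**
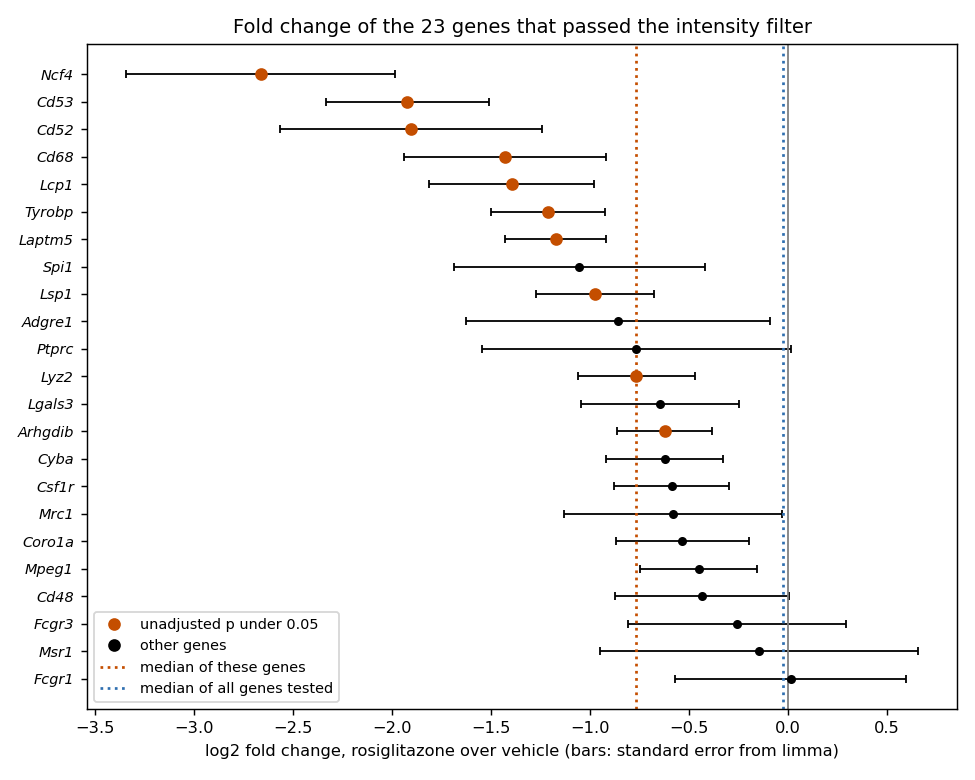
Log2 fold change (rosiglitazone over vehicle) of the 23 genes that passed the filter, with the standard error from limma as bars, orange points for an unadjusted p under 0.05 and dotted lines at the medians of these genes (-0.76) and of all genes tested (-0.02). Points run from -2.66 for Ncf4 to 0.02 for Fcgr1.

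Among receptors, Csf1r, which carries the survival signal of macrophages, gave intensities of 2263 and 1750 on the rosiglitazone arrays against 2755 and 3242 on the vehicle arrays. Each rosiglitazone array was the lower, by a log2 fold change of -0.59 (standard error 0.29; limma, adjusted p = 0.516). A second probe set of Csf1r, at 2123 and 1650 against 1954 and 1838, overlapped and had -0.02. Adgre1, an adhesion receptor used to mark mouse macrophages, had 381 and 264 against 505 and 655. Its groups did not overlap, and its fold change was -0.86 with a standard error of 0.77 (adjusted p = 0.745 in limma). On a second, dim probe set of Adgre1 the vehicle arrays, at 15 and 33, lay under the floor and the rosiglitazone arrays, at 156 and 212, just above it, so the probe sets of this gene did not point the same way. Cd48, a ligand of the lymphocyte receptor Cd244, overlapped at 944 and 738 against 932 and 1363. Csf2rb, the shared chain of the receptors for GM-CSF, interleukin 3 and interleukin 5, had 164 and 299 against 158 and 154, close to the floor on 3 of 4 arrays. A further probe set, which the probe table assigns to Csf2rb and Csf2rb2 together, overlapped at 778 and 270 against 541 and 1146.

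Of the Fc receptors, 1 lay far apart between the groups and the others overlapped. Fcgr2b, the inhibitory receptor for IgG, had 86 and 38 on the rosiglitazone arrays against 819 and 977 on the vehicle arrays. Both rosiglitazone values lay under the floor, so the signal was at least 6.04-fold lower (limma with no filter, unadjusted p = 0.00589, adjusted p = 0.327). Fcgr3, an activating low-affinity receptor, had 517 and 691 against 778 and 656, with overlap and a log2 fold change of -0.26. Fcgr1, the high-affinity receptor, had 510 and 732 against 640 and 571, with overlap and a log2 fold change of 0.02, and a standard error of 0.58 that leaves its direction undetermined. A second, dim probe set of Fcgr1 overlapped, at 221 and 123 against 113 and 126. The differences between these receptors were not tested.

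The signalling adaptors of myeloid receptors had lower intensities on both rosiglitazone arrays, on at least 1 probe set each. Tyrobp, the adaptor DAP12 of many activating myeloid receptors, had 2219 and 1743 on the rosiglitazone arrays against 3881 and 5330 on the vehicle arrays. Its groups lay apart by a log2 fold change of -1.21 (standard error 0.29; limma, unadjusted p = 0.00227, adjusted p = 0.123). Fcer1g, the common gamma chain of Fc receptors, had 91 and 209 against 776 and 692, 1 of the rosiglitazone arrays being under the floor. With that array set to the floor the difference was 4.17-fold, which is a lower bound (limma with no filter, adjusted p = 0.372), and a second probe set of Fcer1g lay under the floor on all 4 arrays. Of the integrin pair that forms complement receptor 3, the beta chain Itgb2 had 60 and 108 against 576 and 857, at least 4.75-fold lower (limma with no filter, adjusted p = 0.34). The alpha chain Itgam had 134 and 161 against 96 and 69, at or under the floor on 3 of 4 arrays, so that this marker of myeloid cells gave no usable level here.

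Only 3 signalling and transcription members were measured, and 1 of them, Spi1, reached the filter. Ptpn6, the phosphatase SHP-1 that restrains signals of immune receptors, had 95 and 198 on the rosiglitazone arrays against 642 and 543 on the vehicle arrays, with no overlap. With the lower rosiglitazone array set to the floor its log2 fold change was -1.79 (limma with no filter, adjusted p = 0.367), so the difference was at least of that size. Spi1, which encodes PU.1, had 965 and 289 against 1014 and 1184. The first rosiglitazone array nearly reached the vehicle arrays and the second did not, giving a log2 fold change of -1.05 (standard error 0.63, adjusted p = 0.599 in limma). It was -1.92 without rosiglitazone replicate 1 but -0.18 when replicate 2 was left out instead. Vav1, a signalling protein of blood cells, had 459 and 459 against 403 and 166 on its brightest probe set. Of its 3 probe sets, 2 were higher on both rosiglitazone arrays and the third overlapped, and none reached the filter.

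The NADPH oxidase was measured through 4 subunits, of which 2 lay apart between the groups and 2 overlapped. Ncf4, the cytosolic subunit p40-phox, had 330 and 60 on the rosiglitazone arrays against 1160 and 1689 on the vehicle arrays. This was the largest fold change among the 23 genes tested, -2.66 with a standard error of 0.68, with 1 rosiglitazone array at the floor (limma, unadjusted p = 0.00342, adjusted p = 0.158). Its size depended on the floor, at -3.13 with the floor at the 10th percentile and -1.76 at the 40th. Ncf4 reached the filter through the vehicle arrays alone, so a lower value with rosiglitazone was built into its selection. Cyba, the membrane subunit p22-phox that many other cells also make, had 2444 and 4102 against 4932 and 4809, and 1527 and 2402 against 3203 and 4566 on a second probe set. Neither probe set overlapped, and their log2 fold changes were -0.62 and -0.998. On the first of them the value was -0.25 without rosiglitazone replicate 1 but -0.99 when replicate 2 was left out instead. Cybb, the catalytic subunit, overlapped at 188 and 312 against 419 and 55, and Ncf1, the organiser subunit p47-phox, at 117 and 374 against 202 and 190, both under the filter.

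Of the 7 measured lysosomal and scavenger genes, 6 lay lower on both rosiglitazone arrays, against 22.0% of all genes tested, and Msr1 overlapped. On their brightest probe sets these 6 were lower by 1.37-fold to 2.69-fold. Laptm5, a lysosomal membrane protein of blood cells, had 4157 and 5087 on the rosiglitazone arrays against 8585 and 12529 on the vehicle arrays. A second probe set had 2549 and 4360 against 7367 and 6947. Both probe sets separated the groups, with log2 fold changes of -1.17 (standard error 0.26) and -1.10 (standard error 0.29), and adjusted p of 0.104 and 0.17 in limma. Cd68, a glycoprotein of the macrophage lysosome, had 1089 and 414 against 1606 and 2029, a log2 fold change of -1.43 (limma, adjusted p = 0.346). Its second rosiglitazone array was much lower than its first, and the value was -2.12 with the first left out and -0.73 with the second left out. A second, dim probe set of Cd68 overlapped, at 28 and 88 against 342 and 39. Lyz2, the lysozyme of macrophages and neutrophils, had 3689 and 2398 against 4386 and 5815, a log2 fold change of -0.76 (standard error 0.29; limma, adjusted p = 0.384). That value lay between -1.08 and -0.45, the latter without rosiglitazone replicate 2, when 1 array was left out. The probe set that cannot be told between Lyz1 and Lyz2 had 1236 and 203 against 3541 and 2777, a log2 fold change of -2.65 (limma, adjusted p = 0.179). Lysozyme signal was thus lower on both rosiglitazone arrays on either of these probe sets, by sizes that differed. A further, dim probe set of Lyz2 had 48 and 77 against 135 and 302, with both rosiglitazone arrays and 1 vehicle array under the floor.

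Lgals3, the galectin of activated macrophages, had 907 and 869 on the rosiglitazone arrays against 1174 and 1644 on the vehicle arrays (log2 fold change -0.65). Mpeg1, a pore-forming protein of phagosomes, had 1910 and 2303 against 3288 and 2497 (log2 fold change -0.45). Both separated the groups, by less than 2 of their standard errors of 0.40 and 0.30. Lgals3 was at -0.40 without vehicle replicate 4 and Mpeg1 at -0.25 without vehicle replicate 3. A second, dim probe set of Mpeg1 overlapped, at 133 and 166 against 142 and 264. Mrc1, the mannose receptor of resident macrophages, had 769 and 428 against 849 and 865, with a log2 fold change of -0.58 that was -1.002 without rosiglitazone replicate 1 but -0.16 when replicate 2 was left out instead. The scavenger receptor Msr1 overlapped at 283 and 555 against 484 and 397, while a second probe set of Msr1, under the filter, had 389 and 164 against 694 and 630.

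Of the 7 measured genes of leukocytes in general, 6 lay lower on both rosiglitazone arrays (22.0% of all genes tested) and 5 were lower at an unadjusted p under 0.05 in limma (5.93% of all genes tested). Of these, Cd52 reached the filter through the vehicle arrays alone. Cd53, a tetraspanin of the leukocyte surface, had 645 and 455 on the rosiglitazone arrays against 2060 and 2045 on the vehicle arrays. Its log2 fold change of -1.92 (standard error 0.41) had the smallest p among the 23 genes (limma, unadjusted p = 0.00111, adjusted p = 0.0964). Cd52, a small surface glycoprotein, had 220 and 361 against 1357 and 819, a log2 fold change of -1.90 (standard error 0.66). The actin-bundling protein Lcp1, or L-plastin, had 3146 and 1192 against 4750 and 5460, and its log2 fold change of -1.40 depended on 1 array. Without rosiglitazone replicate 1 it was -2.10, and without rosiglitazone replicate 2 it was -0.69. The first of these had an adjusted p of 0.0112 in limma, but it set 1 rosiglitazone array against 2 vehicle arrays, whose spread, with limma's prior over all probe sets, set the error, the lone array being assumed to vary like them. A second, dim probe set of Lcp1 had 130 and 103 against 234 and 705, with both rosiglitazone arrays under the floor. Lsp1, an actin-binding protein of leukocytes, had 1325 and 1446 against 2780 and 2653, and 879 and 990 against 2809 and 1859 on a second probe set. The log2 fold changes of Lsp1 were -0.97 and -1.29, with adjusted p of 0.249 and 0.204 in limma, and the first stayed between -1.04 and -0.91 with any 1 array left out.

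Arhgdib, a cytosolic protein abundant in leukocytes, had 3423 and 3069 on the rosiglitazone arrays against 5132 and 4849 on the vehicle arrays (log2 fold change -0.62, standard error 0.24). Coro1a, the leukocyte coronin, had 1175 and 1297 against 1693 and 1882 (log2 fold change -0.53, standard error 0.34). Both were low on both rosiglitazone arrays with little spread within a group. Ptprc, the leukocyte phosphatase CD45, overlapped at 244 and 524 against 436 and 848, and 2 further probe sets of Ptprc lay under the floor on all 4 arrays. Its fold change was -0.77 with a standard error of 0.78, so this common marker of leukocytes did not settle a direction, and it ran from -1.32 to -0.21 with 1 array left out.

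Set against the mean of the vehicle arrays, 29 of the 32 genes were lower on rosiglitazone array 1, with a median log2 difference of -0.61, and 25 were lower on rosiglitazone array 2, with -0.84. Between the vehicle arrays, 16 of 32 were lower on array 3 than on array 4, with a median of -0.01, and between the rosiglitazone arrays 16 were lower on array 1 than on array 2, with -0.06. Single genes varied more than this balance shows. The median SD of log2 intensity over the 23 genes tested was 0.37 in the rosiglitazone group and 0.20 in the vehicle group, against 0.29 and 0.24 over all genes tested. The count of 10 genes at an unadjusted p under 0.05 was 12 and 8 without rosiglitazone replicate 1 or 2, and 6 and 5 without vehicle replicate 3 or 4. Over the 5466 genes, 324 were lower at that p with all arrays, 431 and 410 without rosiglitazone replicate 1 or 2, and 172 and 149 without vehicle replicate 3 or 4. Each of these fits had a lone array in 1 group, assumed to vary like the arrays of the other.

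**Figure D3:**
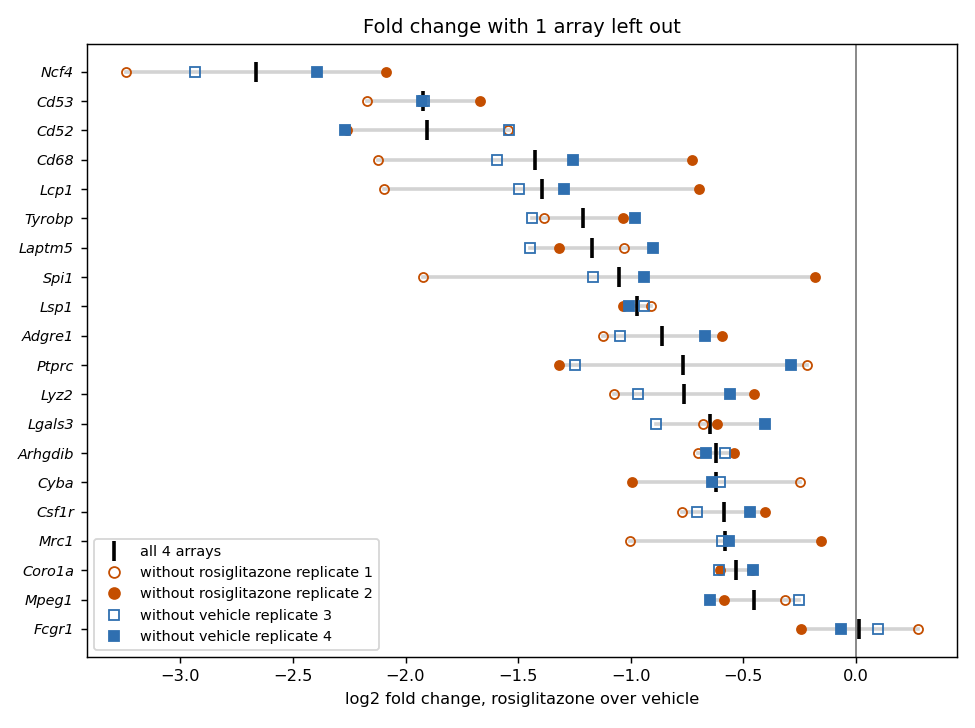
Log2 fold change (rosiglitazone over vehicle) of 20 genes with all 4 arrays (black bar) and with each array left out (open and filled circles for rosiglitazone replicates 1 and 2, open and filled squares for vehicle replicates 3 and 4). Lsp1 and Arhgdib hardly moved, Spi1 ran from -1.92 to -0.18, and Fcgr1 crossed 0.

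Other genes of phagocytes gave a mixed picture. Of 36 listed, 23 were on the array and 12 were tested, of which 1 was lower and 0 were higher past the adjusted p in limma. At an unadjusted p under 0.05 in limma, 4 were lower, against 5.93% of all genes tested, and 0 higher, against 5.03%. Fold changes were below 0 for 7 of the 12, near the 51.8% of all genes tested, with a median of -0.52. The gene that passed was Cd14, the lipopolysaccharide co-receptor, which fell from 27529 and 26830 with vehicle to 3496 and 3642 with rosiglitazone (limma, adjusted p = 1.45e-04). This call was lost without vehicle replicate 3 or vehicle replicate 4, with no filter, with a floor at the 40th percentile and without limma's intensity trend. The next by p were Slc11a1, a metal transporter of the phagosome, at 626 and 169 against 1916 and 2092, the protease Ctss at 2798 and 4419 against 8530 and 6579, and Lst1, a small leukocyte membrane protein, at 1777 and 2992 against 3769 and 4495. All 3 were lower on both rosiglitazone arrays, with log2 fold changes of -2.62, -1.09 and -0.84. Slc11a1 reached the filter through the vehicle arrays alone, so a lower value with rosiglitazone was built into its selection. Cx3cr1, the fractalkine receptor of patrolling monocytes and resident macrophages, was higher on both, at 1787 and 3736 against 1723 and 1469 (log2 fold change 0.70, adjusted p = 0.568 in limma).

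Of 31 further genes of leukocyte signalling, 16 were tested, and 0 passed the adjusted p in limma in either direction. At an unadjusted p under 0.05 in limma, 2 were lower, against 5.93% of all genes tested, and 0 higher, against 5.03%. Fold changes were below 0 for 13 of the 16, against 51.8% of all genes tested, with a median of -0.71. Cd37, Inpp5d, Lat2, Lcp2 and Was reached the filter through the vehicle arrays alone, so a lower value with rosiglitazone was built into their selection. The smallest p belonged to Selplg, the selectin ligand PSGL-1, at 2497 and 2308 against 4317 and 4234 (log2 fold change -0.83, adjusted p = 0.243). The tetraspanin Cd37 had 445 and 218 against 904 and 947, and Ikzf1, the lymphoid transcription factor Ikaros, had 278 and 726 against 841 and 1697. The integrin chain Itgax and the GTPase Rac2 followed, with log2 fold changes of -0.86 and -0.57. All 5 lay apart between the groups with rosiglitazone lower. In total 7 of the 16 did so, against 22.0% of all genes tested, and 1 lay apart with rosiglitazone higher, against 19.1%.

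Markers of particular leukocytes were set beside these values. Over all genes tested, 51.8% had fold changes below 0 and 22.0% lay lower on both rosiglitazone arrays. In limma, 5.93% were lower at an unadjusted p under 0.05 and 0.329% past the adjusted p. These shares stand beside every count of this paragraph. Of 15 listed markers of resident macrophages 12 were on the array and 9 were tested. All 9 had fold changes below 0, against 51.8% of all genes tested, with a median of -0.42. At an unadjusted p under 0.05 in limma 1 was lower, against 5.93%. Under the filter, Mertk (log2 fold change 0.99), Maf (0.08) and Pf4 (-0.28) overlapped. The summed intensity over the 12 on the array was 22434 to 28352 with rosiglitazone and 32140 to 34080 with vehicle. Of 11 monocyte markers 4 were tested, with 3 below 0 and a median of -0.54, at sums of 5203 to 7064 and 7895 to 8418. Neutrophil markers, 14 of 18 on the array, summed to 10648 to 12750 with rosiglitazone and 135015 to 200531 with vehicle, and 2 of 10 tested were lower past the adjusted p in limma, S100a8 and S100a9. S100a8 had 755 and 1883 against 76047 and 131937, and S100a9 had 936 and 1199 against 45381 and 55514. A further probe set of Lcn2, not the one that stood for that gene, had 145 and 57 against 3982 and 5054, at least 30.3-fold lower (limma, adjusted p = 0.00214). It reached the filter through the vehicle arrays alone, so a lower value with rosiglitazone was built into its selection. Both rosiglitazone values were set to the floor, giving an SD of 0, so its p may be too small. The brightest Lcn2 probe set, which enters the sums, had 1175 and 1332 against 1715 and 2370. Without S100a8 and S100a9, a split made after their values were seen, the neutrophil sums were 7566 to 11059 and 13080 to 13587. Genes of antigen presentation by MHC class II had 4 of 8 below 0 and a median of 0.01, at sums of 34532 to 37513 and 35877 to 38407, which overlapped. Of 14 lymphocyte markers on the array 5 were tested, all 5 below 0 (median -0.77). The 14 summed to 5847 to 6408 and 7922 to 8209. Under the filter, Cd3e, Cd22, Cd72, Cd8a and Cd8b1 were higher on both rosiglitazone arrays, and Cd3g was lower on both. Of 8 mast cell markers on the array 5 were tested, all 5 below 0 (median -0.29). The 8 summed to 7678 to 10125 and 12068 to 12367, and Mcpt4, under the filter, was higher on both rosiglitazone arrays. The lymphocyte marker Cd79a, the monocyte marker F10 and the neutrophil markers Mmp9 and Cxcr2 reached the filter through the vehicle arrays alone. Of 5 erythrocyte markers tested, 3 (Alas2, Bpgm and Hbb-b2) were lower on both rosiglitazone arrays, each at an unadjusted p under 0.05 in limma, with a median of -0.73 over the 5. Their sums, at 507470 to 669832 and 564339 to 658452, overlapped and consisted mostly of Hba-a1, at 467487 and 616423 against 493863 and 569180. Platelet markers, with 2 tested and a median of -1.36, summed to 1176 to 3751 and 4739 to 5482. Only Cd8b1 of these leukocyte, red cell and platelet markers lay under the floor on all 4 arrays. The part of neutrophils or any other cell type in the differences of the 32 genes was not tested.

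Marker sums of the vessel wall and of fat were compared in the same way. Smooth muscle markers, 11 of 13 on the array, summed to 68476 to 74268 with rosiglitazone and 136061 to 161666 with vehicle (median log2 fold change -1.01), and none of the 11 lay under the floor on all 4 arrays. Of them, Smtn reached the filter through the vehicle arrays alone. Fibroblast markers summed to 95694 to 111160 and 148366 to 176523 (median -0.59), and endothelial markers to 27307 to 33810 and 31216 to 37809 (median -0.28), with overlap. Brown adipocyte sums were higher with rosiglitazone, at 437289 to 465423 and 310209 to 313036 (median 0.44), and so were those of white adipocytes, at 226630 to 258853 and 166355 to 175606 (median 0.16). The white adipocyte sums consisted mostly of Adipoq, at 165554 and 195068 against 125080 and 136822. Fold changes were below 0 for 3 of the 6 white adipocyte markers tested and for 1 of the 7 brown ones. As a gauge of RNA integrity, actin signal at the 3′ end over that at the 5′ end was 7.74 and 9.62 on the rosiglitazone arrays against 8.88 and 11.9 on the vehicle arrays, with overlap. The same ratio for Gapdh was 8.79 and 10.8 against 11.1 and 11.1, lower on both rosiglitazone arrays. The part of these other tissues and of RNA quality in the values of the leukocyte genes was not tested, and no list was compared with another by a test.

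**Figure D4:**
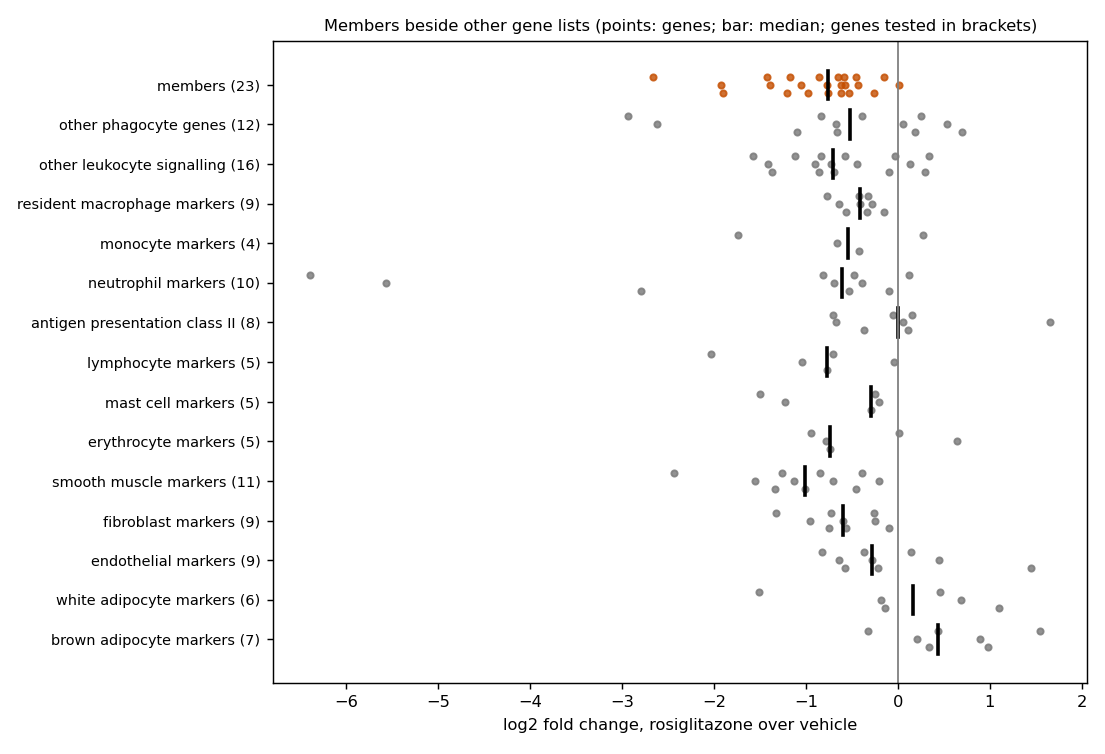
Log2 fold change (rosiglitazone over vehicle) of each tested gene, as points, with the median of each list as a black bar and the number of genes tested in brackets, for the 23 genes of this report (orange) and 14 other lists, the platelet list with its 2 tested genes being left out. The medians plotted ran from -1.01 for smooth muscle to 0.44 for brown adipocyte markers, with these genes at -0.76.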

How the data were processed

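The deposited value table of 4 Affymetrix arrays holds linear intensities as whole numbers. Software, background correction and detection calls are not given in the sources used here. These deposited intensities share a scale, with a mean of 1501 on each array after 2% was trimmed at each end and medians of 591 to 648, so no further scaling was applied. Of 12488 probe sets, 66 controls were left out. The platform's probe table gave 1 symbol to 10833 probe sets, several to 396 and none to 1193, and symbols were looked up by gene identifier in a GRCm38.p6 table.

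Intensities under 148, the 20th percentile, were raised to it before log2 was taken. Probe sets with a mean of at least 414, the 40th percentile, were tested with limma 3.58.1 in R 4.3.3 (lmFit, then eBayes with the prior following intensity). Tests were two-sided and Benjamini-Hochberg adjusted. The fit had 2 residual degrees of freedom, and the number of arrays limits the precision. Where the floor replaced both values of a group, their SD is 0 and p may be too small. Each gene was represented by its brightest probe set. The procedure was tested on simulated data.

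The genes followed and the other lists were chosen with earlier results of these data known. Intensities were given for genes past the adjusted p, then for those with the smallest p up to 16, for a fixed set of defining markers, for genes going against the median, and, beyond that rule, for the remaining genes on the array, so that each was shown. From the 2 other lists, genes past the adjusted p and the 5 with the smallest p were named. Markers of cell types were taken as lists. The alternatives were other floors, filters and scalings, no intensity trend, the mean over probe sets and each array left out.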

Additional observations from a re-analysis of the deposited data

How the results depend on the processing

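The median log2 fold change of the member genes, -0.76 with all 4 arrays, and the counts of genes below 0 and without overlap kept their direction and stayed within 1.5 times under every alternative that could give them. The counts were not all over the same genes. Below 0 were 22 of 23 in the main fit, 27 of 32 with no filter, 26 of 32 with the floor at the 40th percentile and 17 of 17 with the filter at the 50th. Lower without overlap were 18 of 23, 22 of 32, 22 of 32 and 15 of 17. The mean over probe sets gave no p. The count of 0 genes past the adjusted p in limma held under the other floors, filters and scalings and without the intensity trend, and was 0 to 1 with 1 array left out. The 1 was Lcp1 without rosiglitazone replicate 1. In each such fit a lone array was assumed to vary like the arrays of the other group, whose spread, with limma's prior over all probe sets, set the error. The count at an unadjusted p under 0.05, 10 with all arrays, ran from 5 to 12 with 1 array left out. Among the other phagocyte and signalling genes, the count lower past the adjusted p was 1 with all arrays, 0 with the floor at the 40th percentile, 0 with no filter, 0 without the intensity trend, and 0 to 2 with 1 array left out. The fold change of Fcgr1 turned to -0.25 without rosiglitazone replicate 2 and -0.07 without vehicle replicate 4, and ran up to 0.28 without rosiglitazone replicate 1. The cause of these changes was not tested. Centring each array on its median moved the median of all genes tested from -0.02 to 0.06. No paired analysis was possible because the labels give the groups no replicate number in common. No detection calls were used, so signal over background could not be judged.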
